A study of Mus musculus with 28 samples.

Results

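Transcripts that were more abundant in cultured than in tissue neurons of the mouse hippocampus made up 65 of the 28661 features counted in the series. A feature is a row of the count table, named by 1 or more UCSC known-gene identifiers. The members were chosen from the measured values: the mean log2(CPM + 10) of a tissue group minus that of the cultured group had to be −1.5 or less for neurons captured by TIVA and also for neurons drawn up by pipette, and at least 1 of the 8 hippocampal tissue neurons had to hold 1 CPM or more. CPM is a read count per 1000000 reads assigned to features in its library, and −1.5 on this scale is a 2.83-fold lower CPM + 10. The TIVA condition was met by 290 features, the pipette condition by 1534 and both by 67, and 2 of these were kept out because no tissue neuron held 1 CPM. The number rests on single libraries: without the fourth cultured hippocampal TIVA neuron the rule gave 40 features, 36 of them among the 65.

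All samples came from C57BL/6 mice, with no treatment other than the capture itself. Cultured neurons had spent 7 to 9 days on coverslips, and tissue neurons and bulk tissue came from acute coronal slices of animals 8 to 10 days old. TIVA, transcriptome in vivo analysis, loads cells with a caged tag that a laser opens in a chosen cell, where it binds polyadenylated RNA for capture. The tag was given at 10 µM for 15 min and opened at 30% laser power in culture, and at 30 µM for 90 min and 80% power in slices, so setting and capture conditions cannot be told apart in TIVA contrasts. The groups were cultured hippocampal neurons by TIVA (4) and pipette (3), hippocampal tissue neurons by TIVA (5) and pipette (3), cultured cortical neurons by TIVA (4) and pipette (4), cortical tissue neurons by TIVA (2), and bulk hippocampus (3). The hippocampal tissue pipette neurons carry an extraction text that describes TIVA, and the cortical tissue TIVA neurons one that names the hippocampal CA1 area. Both were grouped by their source name. Neurons are numbered in record order, and RNA was amplified in 3 rounds of in vitro transcription before sequencing.

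Neurons in dissociated culture regrow axons and dendrites on a flat surface, away from their former partners and most of the surrounding glia. Neurons in an acute slice keep their dendrites and part of their local circuit, and lie among astrocytes, oligodendrocytes, microglia and vessels. Bulk hippocampus holds the RNA of all these cells, so there a smaller number of cells of a type and less RNA per cell cannot be told apart. Gene symbols could not be attached to the identifiers (0 of 55419 matched the tables used here). The members can thus not be assigned to pathways, the neuronal label could not be checked against marker genes, and no sequence is printed. Only 4 members are named below.

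Depth differed between groups, with 5295130 to 59048065 assigned reads per library, so that the limit behind a count of 0 (3 reads) ranged from 0.0508 to 0.567 CPM. Reads outside features made up 17.6% and 18.8% of counted reads in the cortical tissue neurons, 15.8% to 39.2% in hippocampal tissue neurons, 21.1% to 30.5% in bulk, 19.9% to 38.4% in cultured hippocampal TIVA neurons, and 31.5% to 81.1% in the other cultured groups. The part of these shares in the results was not tested. Every neuron library holds a single cell, and no label ties it to an animal or dish. A group was therefore treated as 1 sample, no p-value is given, and differences stand beside the values of the libraries.

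In the hippocampal libraries that chose them, all 65 members were present at 1 CPM or more in each of the 7 cultured neurons. So were 85.1% of the tested features, the 10694 whose mean over the 28 libraries reached 5 CPM, among them all 65 members. The rule favours high levels in these neurons. The middle member (the median over members) lay at 38.6 to 109 CPM in the 4 cultured TIVA neurons and at 81.0 to 109 CPM in the 3 cultured pipette neurons. In the 5 tissue TIVA neurons it lay at 0.313, 0.414, 10.1, 13.0 and 17.1 CPM. In the 3 tissue pipette neurons it lay at 0.383, 1.51 and 5.76 CPM. Every tissue neuron was thus below every cultured one on this measure, as the rule favours. The median tissue minus culture difference was −1.71 for TIVA and −2.17 for pipette, where 2.68% and 14.3% of all tested features reached −1.5 or less. The 3 members nearest the threshold had TIVA differences of −1.502, −1.503 and −1.504, and the 3 nearest features outside it −1.494, −1.493 and −1.488. Every tissue neuron was below every cultured one for 28 members by TIVA (6.93% of tested features) and 53 by pipette (33.8%).

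**Figure D1:**
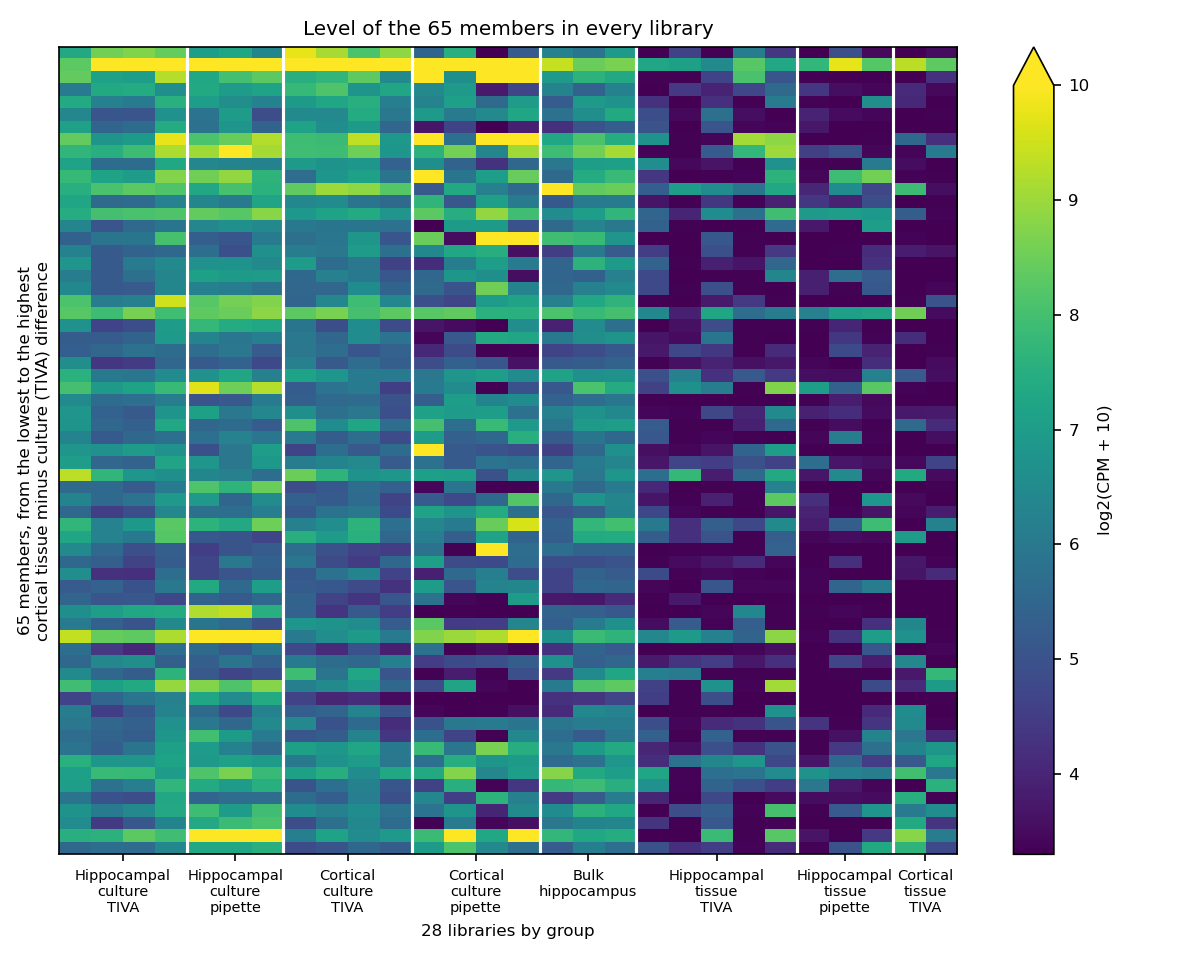
Heat map of log2(CPM + 10) for the 65 members (rows, ordered by the cortical tissue minus culture TIVA difference) in the 28 libraries (columns, by group; white lines part the groups). Cultured and bulk libraries are filled nearly throughout, apart from gaps in cultured cortical pipette neurons, while tissue neurons show scattered filled cells on a dark ground; levels above 10 share the top colour.

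Presence in the hippocampal tissue neurons, which the rule used, varied among the members. At 1 CPM or more in all 8 tissue neurons were 8 members (12.3%), against 34.8% of the tested features. In 5 to 7 neurons were 23 (35.4%), against 34.4%, and in 1 to 4 were 34 (52.3%), against 27.5%. Of these 34, 6 were each at 1 CPM or more in only 1 of the 8 neurons, which was not the same neuron for all of them. The members below 1 CPM numbered 18, 19, 19, 35 and 39 in the 5 TIVA neurons and 26, 29 and 39 in the 3 pipette neurons. Of the TIVA neurons 3 thus held more of the members than the other two.

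The sum over the members, in the same libraries that chose them, gave the same order of settings, as the rule favours. It is a description and not a second line of evidence. Together they took 0.0985% to 0.531% of the reads of a hippocampal tissue TIVA neuron and 0.0803% to 0.272% of a tissue pipette neuron. In culture they took 0.665% to 1.32% of hippocampal TIVA reads and 1.36% to 2.20% of hippocampal pipette reads. A varying part of the sum belonged to uc008ewj.2, which supplied 3.64% to 28.4% of it in cultured hippocampal TIVA neurons and 12.3% to 46.8% in cultured hippocampal pipette neurons. Without that member the sums were 0.0857% to 0.516% in tissue TIVA, 0.0599% to 0.243% in tissue pipette, 0.489% to 1.10% in cultured TIVA and 1.17% to 1.196% in cultured pipette neurons. The fifth tissue TIVA neuron, at 0.531%, was below the lowest cultured TIVA neuron (0.665%) with that member and above it without (0.516% against 0.489%). The pipette groups did not overlap either way, which the rule also favours.

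Cortical neurons, which the rule did not use, were compared to see how the same features stood between culture and tissue there. The median cortical tissue minus cultured cortical TIVA difference of the members was −1.99, that is a 3.96-fold higher CPM + 10 in culture, with an interquartile range from −2.49 to −1.08. Over all tested features the median was −0.77, so the members lay 1.22 further down than the general shift between these libraries (member median minus tested median, −1.22). At −1.5 or less were 46 of 65 members (70.8%), against 23.2% of the tested features. The distance between these shares depended on the scale: they were 80.0% and 61.1% with a pseudocount of 1 CPM, and 73.8% and 37.3% when scaled without the 50 most abundant features. Below 0 were 61 of 65, against 77% of the tested features, and none lay at 1.5 or more, against 4.81%. Both cortical tissue neurons were below all 4 cultured ones for 44 members, or 67.7%, against 51.1% of the tested features.

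By library, the middle member stood at 1.52 and 0.567 CPM in the 2 cortical tissue neurons and at 35.8, 51.5, 58.2 and 82.0 CPM in the 4 cultured cortical TIVA neurons. The groups did not overlap. The middle tested feature was at 2.91 and 0.378 CPM in the same tissue neurons and at 15.5 to 26.8 CPM in the cultured ones, so the members stood above other features in culture and on either side of them in tissue. The summed share of reads was 0.349% and 0.151% in tissue and 0.905% to 2.24% in culture, again without overlap. Without uc008ewj.2 these sums were 0.287% and 0.120% in tissue and 0.364% to 0.690% in culture.

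**Figure D2:**
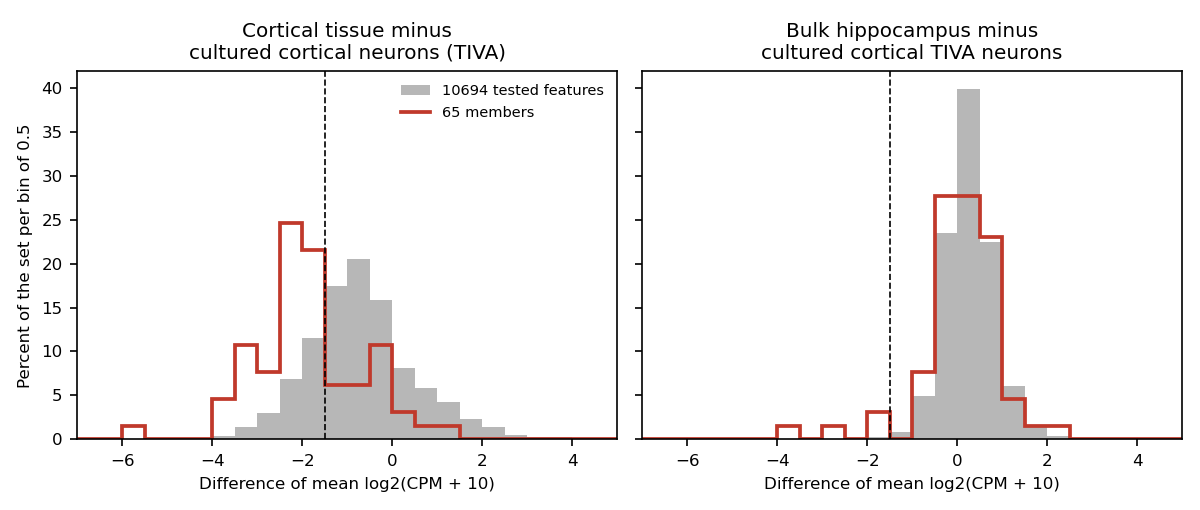
Distribution of the difference in mean log2(CPM + 10) over bins of 0.5 for the 65 members (red outline) and the 10694 tested features (grey), as percent of each set; the dashed line marks −1.5. In the cortical contrast (left) the members' median is −1.99 and that of the tested features −0.77, and in bulk minus cultured cortical TIVA (right) the medians are 0.14 and 0.25.

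The members are features of middling to high level in culture, and such features were more often low in cortical tissue. Among features whose mean over all libraries reached 20 CPM, 45 of 63 members (71.4%) and 32.3% of all features lay at −1.5 or less. With the limit set at a mean of 50 CPM in the cultured cortical TIVA neurons, a comparison added after seeing the data, these were 28 of 37 members (75.7%) and 38.5% of features. Of the same 37 members, 13 (35.1%) and 15 (40.5%) were below 1 CPM in the first and the second cortical tissue neuron, where 14% and 23.9% of the features of that level were. The members' share was thus the higher one at each of these limits, and by a smaller factor at the stricter limits.

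Cultured cortical pipette neurons gave a second reference from other cells. Against them the cortical tissue TIVA neurons had a median member difference of −1.89 (tested features −0.83), and 38 of 65 members (58.5%) lay at −1.5 or less against 26.9% of the tested features. With a pseudocount of 1 CPM these shares were 75.4% and 56.5%, and with DESeq2 size factors 47.7% and 17.4%. Among features whose mean over all libraries reached 20 CPM they were 58.7% and 37.2%. At a mean of 50 CPM in cultured cortical pipette neurons, a limit added after seeing the data, they were 75.6% and 47.4%. Below 0 were 58 members, against 78.9%. The direction was opposite, at 1.5 or more, for 3 members, against 4.44%. Both tissue neurons were below all 4 pipette neurons for 29 members, against 35.7% of the tested features. At −1.5 or less from both cultured cortical groups were 36 members, against 14.8% of tested features. The 2 contrasts share the cortical tissue neurons, and the second also crosses the means of capture.

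Cultured cortical neurons held the members less evenly by pipette than by TIVA, as they did the tested features. All 65 were at 1 CPM or more in each of the 4 TIVA neurons, as were 91.0% of the tested features. In the 4 pipette neurons 6, 6, 8 and 15 members were below 1 CPM, and 2 members were below it in all 4 (3.08%, against 2.42% of the tested features). At 1 CPM or more in all 4 were 46 members (70.8%), against 58.5%. The middle member was nonetheless at similar levels, 49.5 to 68.5 CPM by pipette and 35.8 to 82.0 CPM by TIVA, with overlapping ranges. The median difference between the methods was 0.09, and it hid differences both ways, with 8 members at −1.5 or less (TIVA lower, 5.5% of tested features) and 10 at 1.5 or more (TIVA higher, 3.1%). The median member SD over libraries on the log2 scale was 1.13 by pipette and 0.56 by TIVA, where the tested features had 0.92 and 0.45.

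**Figure D3:**
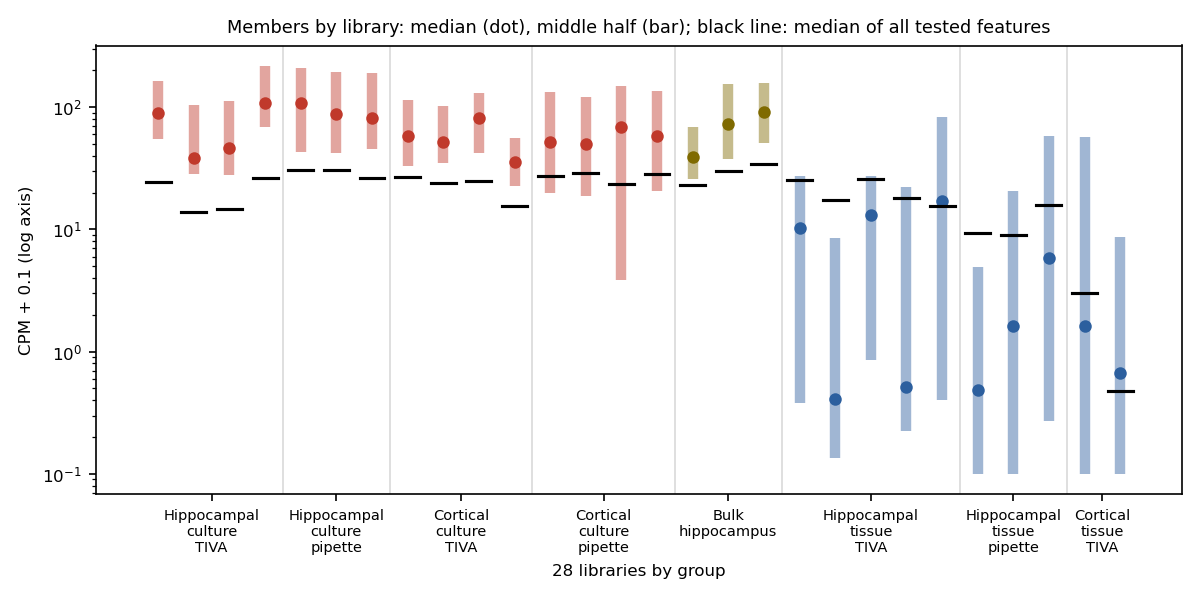
Level of the members in each of the 28 libraries as CPM + 0.1 on a log axis: the dot is the median over the 65 members, the bar their interquartile range, and the black line the median over the 10694 tested features. The dots of cultured (red) and bulk (gold) libraries lie between 35.8 and 109 CPM and above the black lines, and those of tissue neurons (blue) at 17.1 CPM or less.

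The share of members present in cortical tissue was close to that of the tested features. At 1 CPM or more in both cortical tissue neurons were 20 members, in 1 of them 24 and in neither 21, or 30.8%, 36.9% and 32.3%, and the tested features divided nearly alike, with 34.0%, 32.7% and 33.4%. Thinned to a common 5295130 reads, 25 and 21 members had no read in the 2 neurons (38.5% and 32.3%), against 33.6% and 40.8% of the tested features. Before thinning these were 24 and 21 members. Among features whose mean reached 20 CPM, though, 18.2% and 23.9% had no read. Both cortical tissue neurons had 0 reads for 11 members (16.9%), against 21.1% of the tested features, which allows up to 0.380 and 0.567 CPM.

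**Figure D4:**
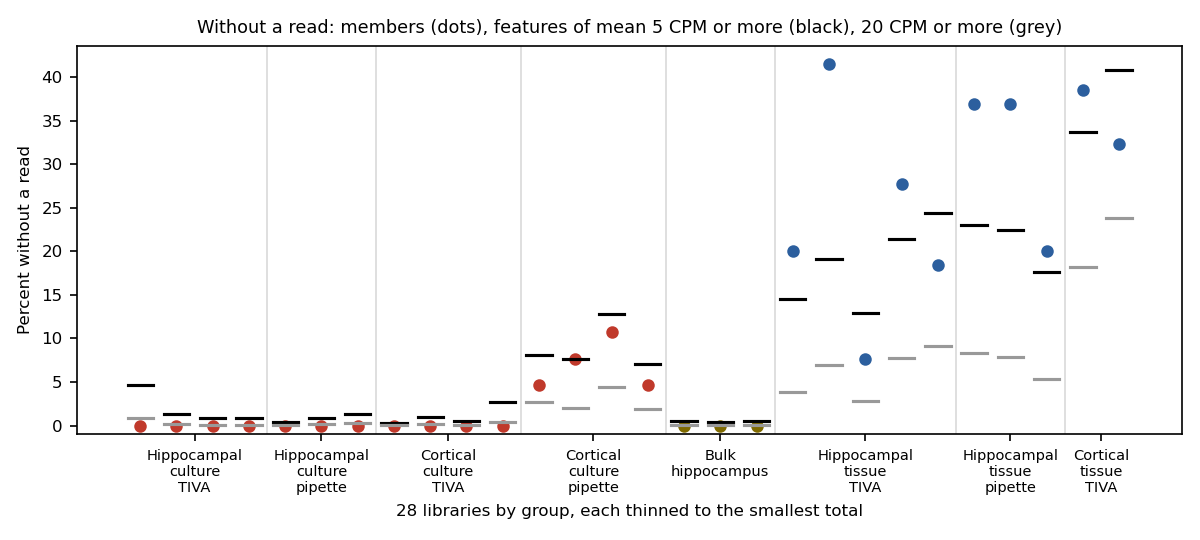
Percent of the 65 members (dots) without a read in each library after thinning to 5295130 reads, beside all features whose mean reached 5 CPM (black lines) or 20 CPM (grey lines). Members without a read number 0 in bulk, cultured hippocampal and cultured cortical TIVA libraries, 4.62% to 10.8% in cultured cortical pipette neurons, and 32.3% and 38.5% in cortical tissue neurons.

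The cortical TIVA difference was also counted by how many hippocampal tissue neurons held a member, a split that uses libraries of the rule and was not tested. Of the 8 members found in all 8 hippocampal tissue neurons, 7 lay at −1.5 or less in cortex, against 25.7% of the tested features found in all 8. Of the 23 found in 5 to 7 neurons, 14 (60.9%) did, against 27.5%. Of the 34 found in 1 to 4 neurons, 25 (73.5%) did, against 16.4%.

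In bulk hippocampus the median member was near its level in cultured cortex, with a few members well below it. All 65 were at 1 CPM or more in each of the 3 bulk libraries, as were 97.8% of the tested features. The middle member lay at 39.2, 72.2 and 90.6 CPM in bulk, a range that overlapped those of all 4 cultured groups and lay above every tissue neuron. Against cultured cortical TIVA neurons, from libraries the rule did not use, the median difference was 0.14 (tested features 0.25), and 4 members (6.15%) lay at −1.5 or less (0.374% of tested features) and 2 at 1.5 or more (2.01%). Bulk was below all 4 of these neurons for 5 members (2.39%) and above them for 2 (15.2%). Against cultured cortical pipette neurons the median was 0.13 (tested features 0.14), with 5 members (7.69%) at −1.5 or less (1.69%) and 9 at 1.5 or more (5.59%). Here bulk was below all 4 neurons for 2 members (4.18%) and above them for 6 (9.83%). Without the second cultured cortical pipette neuron the count of 5 became 9 (3.6% of tested features). Summed over the members, bulk libraries gave 0.585% to 0.734% of their reads, a range that overlapped the 0.665% to 1.32% of cultured hippocampal TIVA neurons and reached below it. It lay below the 0.905% to 2.24% of cultured cortical TIVA neurons. Without uc008ewj.2 the bulk sums of 0.519% to 0.694% overlapped the 0.364% to 0.690% of cultured cortical TIVA neurons.

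Set against bulk tissue, the cortical tissue neurons were lower for 62 of 65 members (83.2% of tested features). The median cortical tissue minus bulk difference was −1.98 (tested features −1.01), and 45 members (69.2%) lay at −1.5 or less against 30.4% of tested features. Region, and single cells against tissue pieces, differ together in this contrast. Bulk minus hippocampal tissue neurons shares the tissue libraries with the rule and is given as a description: medians of 1.78 for TIVA (tested features 0.29) and 1.95 for pipette (0.54). Bulk minus cultured hippocampal neurons shares the cultured libraries with it, with medians of −0.18 for TIVA (tested features 0.40) and −0.52 for pipette (−0.01). Here 3 members lay at −1.5 or less by TIVA (0.196% of tested features) and 11 by pipette (16.9%, against 3.62%). Bulk was below every cultured hippocampal neuron for 7 members by TIVA (0.832%) and 24 by pipette (18.4%). Which of the 8 groups had the highest mean is partly set by the rule and is given as a description. The highest group mean of log2(CPM + 10) was in cultured hippocampal pipette neurons for 28 members (43.1%), against 24.5% of the tested features. It was in cultured cortical pipette neurons for 14 (21.5%, against 16.9%), cultured cortical TIVA for 10 (15.4%, against 9.79%), bulk for 8 (12.3%, against 15.4%) and cultured hippocampal TIVA for 5 (7.69%, against 2.53%). Cortical tissue neurons were highest for none, against 8.46%. Hippocampal tissue neurons cannot be highest under the rule, but were so for 12.1% (TIVA) and 10.3% (pipette) of the tested features. The shares of the other groups are therefore not on the same base for members and tested features.

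The 2 members printed as lowest in cortical tissue, relative to cultured cortical TIVA neurons, were taken by rule from the 44 whose ranges did not overlap and which had 10 or more reads in every cultured cortical TIVA library. The first, uc009mvv.1, stood at 263, 459, 544 and 844 CPM in cultured cortical TIVA neurons. In the 2 cortical tissue neurons it had 0 reads and 8 reads, or 1.51 CPM. Summed over each group this was 512 CPM (95% exact Poisson interval 505 to 518) in culture and 0.607 CPM (0.262 to 1.2) in tissue, intervals that cover counting error only. The difference in mean log2(CPM + 10) was −5.53, the most negative of the 65.

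That member also set the means of capture apart. In cultured cortical pipette neurons it was at 0, 27.6, 34.2 and 170 CPM, all below the lowest TIVA neuron, and the TIVA minus pipette difference of 3.58 was the highest among the members. In hippocampal culture it stood at 152 to 416 CPM by TIVA and 73.3 to 140.2 CPM by pipette. Bulk libraries held 49.9, 66.3 and 109 CPM. In hippocampal tissue it was at 0, 0.209, 10.5, 14.3 and 60.7 CPM by TIVA and at 0, 1.03 and 20.5 CPM by pipette, so that 1 tissue neuron reached the bulk levels and others had no read.

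The second, uc008ewj.2, had the highest mean CPM of the members in both cultured cortical groups. It stood at 3377, 5415, 6540 and 16599 CPM in cultured cortical TIVA neurons and at 626 and 313 CPM in cortical tissue, with no overlap and a difference of −3.88. It had reads in every one of the 28 libraries. Cultured cortical pipette neurons held 1689, 3437, 7660 and 8033 CPM, and cultured hippocampal neurons 306 to 2134 CPM by TIVA and 1669 to 10289 CPM by pipette. In a cultured hippocampal pipette neuron it was the feature of rank 1, taking 1.03% of the assigned reads.

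In tissue neurons uc008ewj.2 ranged on both sides of its level in bulk. Hippocampal tissue held 80.3, 127, 144, 145 and 295 CPM by TIVA and 203, 290 and 859 CPM by pipette. Bulk libraries held 345, 395 and 666 CPM, below all 8 cultured cortical neurons. Bulk minus cultured cortical TIVA was −3.86 and bulk minus cultured cortical pipette −3.25, the most negative of the members in both contrasts. The median member, by contrast, differed by 0.14 and 0.13 in these contrasts.

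**Figure D5:**
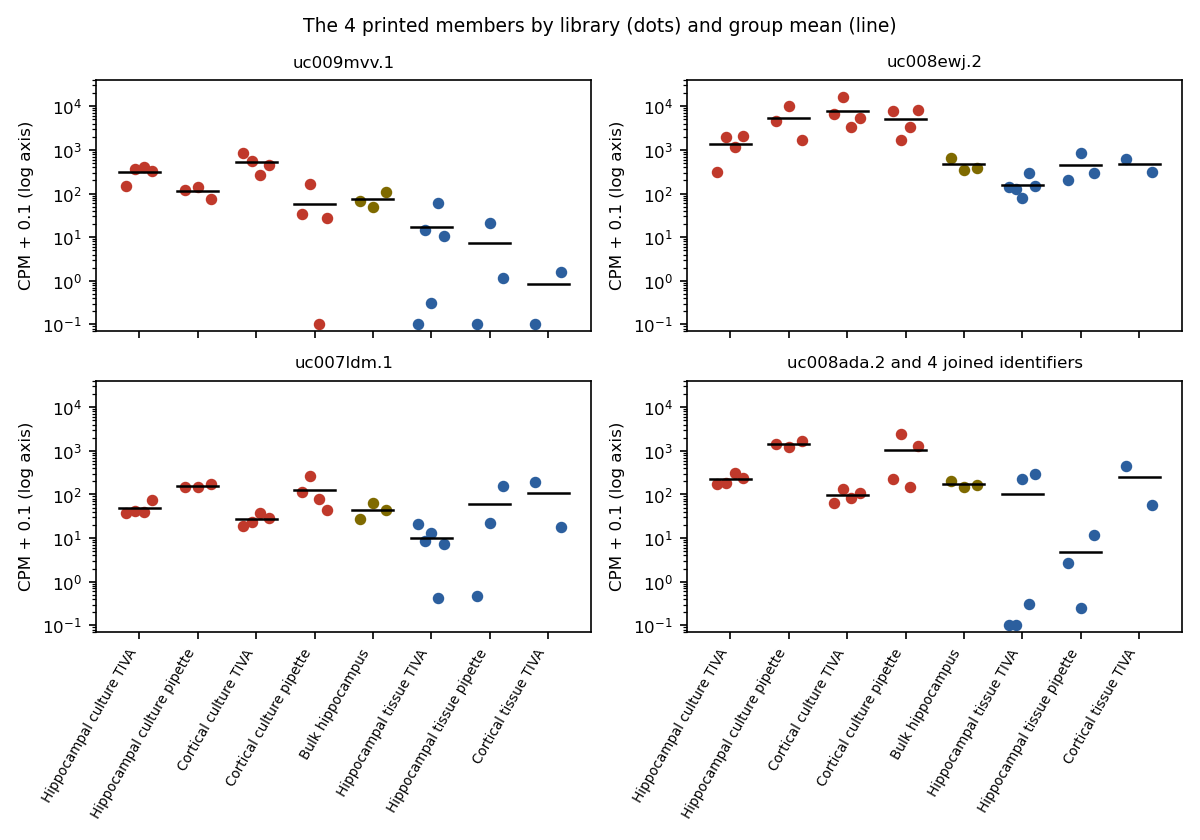
CPM + 0.1 on a log axis of the 4 printed members in every library (dots; red cultured, gold bulk, blue tissue neurons) with the group mean (line). For uc009mvv.1 the cultured cortical TIVA neurons lie at 263 to 844 CPM and the cortical tissue neurons at 0 and 1.51, and for uc007ldm.1 the cortical tissue neurons lie at 17.6 and 194.

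Only 4 members had a cortical tissue mean above that of cultured cortical TIVA neurons (23% of tested features), and in none were both tissue neurons above all 4 cultured ones (5.63%), so that no member met the rule for printing in this direction. The 2 highest were picked after their values were seen. The feature uc007ldm.1 was at 194 and 17.6 CPM in cortical tissue and at 18.8, 22.7, 29.0 and 37.1 CPM in cultured cortical TIVA neurons, a difference of 1.05 that became −0.40 without the first cortical tissue neuron and 2.49 without the second. It was higher by pipette in both cultures, at 45 to 266 CPM in cortex and 147 to 175 CPM in hippocampus against 36.7 to 75.8 CPM in hippocampal TIVA neurons.

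The feature uc008ada.2:uc008acx.2:uc008acz.2:uc008acy.2:uc008adc.1 joins 5 identifiers and was likewise uneven. It stood at 440 and 58.7 CPM in cortical tissue and at 63.4, 82.2, 108 and 135 CPM in cultured cortical TIVA neurons, a difference of 0.76 that became −0.60 without the first tissue neuron and 2.11 without the second. Pipette neurons held much more of it in culture, at 1216 to 1688 CPM in hippocampus and 148, 222, 1315 and 2453 CPM in cortex. Hippocampal tissue TIVA neurons fell into those with 0, 0 and 0.207 CPM and those with 224 and 298 CPM. Bulk libraries were even, at 148, 165 and 204 CPM.

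The members resembled the tested features in how many identifiers a row joins. Several identifiers were joined in 43 of 65 members (66.2%), against 68.6% of the tested features and 41.8% of all features. The median was 2 identifiers among the members and 2 among the tested features, and the highest number among the members was 9.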

How the data were processed

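RNA-seq was analysed for 28 mouse libraries, 25 of them single neurons. The authors deposited raw counts of reads per feature, 1 file per library. CASAVA 1.8.1, HTSeq and the mm9 build are named per the submitters' processing notes, with aligner, overlap mode and strand setting not given in the sources used here. The 5 summary lines were left out of totals (no-feature shares are in the report; 3 of the lines were 0 throughout). Counts were scaled to CPM and averaged as log2(CPM + 10) per group. Tested features have a mean of 5 CPM or more. No count model was fitted, since cells are not replicates; edgeR 4.0.16 and DESeq2 1.42.0 gave scaling factors for alternatives only (R 4.3.3; Python 3.11.15, scipy 1.17.1). The selection code was run on simulated counts in which abundant features were lowered by a known fold. Those counts had the same spread setting for all features and did not copy the spread between cells here. The run therefore checks the code and not how stable the members are. The members, lists and comparisons were chosen with earlier results of these data known.

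By rule, up to 2 members of the most negative and 2 of the most positive cortical TIVA difference were printed, given at least 10 reads in each library of the group with the higher level and no overlap; exceptions are named in the report. Marker lists could not be used without symbols. No 2 libraries of a group agreed within sampling noise (lowest chi-square per degree of freedom 48.6). Alternatives changed the pseudocount, scaling, threshold, filter, group summary and libraries used.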

Additional observations from a re-analysis of the deposited data

Results flagged for a closer look

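Within groups of 4 or 5 libraries, the gap from the highest or lowest value to its nearest neighbour was compared with the full range of the group. Of 28 groups of values 3 had a library that stood apart. The limits used would set apart about 1 in 20 groups of independent, normally distributed values. The groups here share libraries and some hold counts of 0, so that rate need not apply to them. The members together took 0.531% of the reads of the fifth hippocampal tissue TIVA neuron, where the nearest of the other 4 took 0.201% and the lowest 0.0985%. The feature uc009mvv.1 stood at 60.7 CPM in the fourth hippocampal tissue TIVA neuron, where the nearest other neuron had 14.3 CPM. The feature uc007ldm.1 stood at 75.8 CPM in the fourth cultured hippocampal TIVA neuron, the library without which the rule gave 40 features, and at 36.7 to 42.5 CPM in the other 3. All of these are in hippocampal libraries that the rule used.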

How the results depend on the processing

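The contrast of cortical tissue with cultured cortical TIVA neurons kept its direction in every alternative run. Its median was −3.94 with a pseudocount of 1 CPM (tested features −2.15) and −2.54 when scaled without the 50 most abundant features (tested features −1.12). With 1 library left out it was −2.22 to −1.89. The count of members at −1.5 or less was then 42 to 49 (21.8% to 33.0% of tested features). Limited to a mean of 50 CPM in cultured cortical TIVA neurons, an alternative chosen after seeing the data, the count was 28 of 37 (38.5% of features at that limit). Against cultured cortical pipette neurons the median was −3.29 with a pseudocount of 1 CPM (tested features −1.83). It was −1.52 with edgeR TMM factors (tested features −0.60) and −1.37 with DESeq2 size factors (tested features −0.47). With 1 library left out it was −2.31 to −1.61, with a count of 35 to 43 (26.1% to 35.2% of tested features). Bulk minus cultured cortical TIVA had 2 members at −2 or less (0.0842% of tested features). With 1 library left out it had 3 to 4 at −1.5 or less (0.299% to 0.505%). Its median of 0.14 changed sign under DESeq2 size factors (−0.24, tested features −0.07) and without the 50 most abundant features (−0.17, tested features 0.01). Bulk minus cultured cortical pipette had 9 members at −1.5 or less from summed counts (4.11% of tested features). It had 11 at −1 or less (6.78%) and 3 at −2 or less (0.458%). With 1 library left out it had 5 to 9 at −1.5 or less (1.65% to 3.6%). Below 1 CPM in the full cortical tissue libraries were 50.8% of the members, the mean of 47.7% and 53.8% in the 2 neurons. The tested features were close to this: 33.4% reached 1 CPM in neither neuron and 32.7% in 1, against 32.3% and 36.9% of the members. With 1 neuron left out, 32.3% to 38.5% of the members had no read. The number of members was 1297 with a pseudocount of 1 CPM (65 shared), 247 without the 50 most abundant features (64 shared), 28 from summed counts (23 shared), 16 at −2 or less, 61 with TMM (43 shared), 83 with DESeq2 factors (44 shared), and 40 to 91 with 1 library left out. The cause of these shifts was not tested. No paired analysis was possible because the replicate numbers follow record order only. Counts of 3 reads or fewer, up to 0.567 CPM, limit what absence can show.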
